A study of Mus musculus with 8 samples.

Results

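RNA of the proteasome genes was read in 4 populations of CD4 T cells that expressed a Foxp3 reporter, sorted from mouse mesenteric lymph nodes. Genes were taken by symbol: every gene named Psma, Psmb, Psmc or Psmd with a number, at a mean of 1 CPM or more over the 8 libraries (CPM, the count of a gene scaled to the total over named genes in its library). Of 24108 named genes, 40 matched by symbol and 38 passed that level, out of 11893 genes at that level in all. Of the 38, 34 encode constitutive subunits or dedicated chaperones, 3 (Psmb8, Psmb9 and Psmb10) encode the catalytic subunits of the immunoproteasome, and 1, Psmc3ip, shares only the letters of its symbol: it encodes a partner of recombinases and is no proteasome gene. The genes that missed the level were Psma8, the testis form of an alpha subunit, with a mean of 0.241 CPM, and Psmb11, the catalytic subunit of thymic epithelium, with 0 counts in every library, which allows a level of up to 3 counts, or 0.0626 to 0.0788 CPM. The mean of Psmc3ip was the one just inside the limit, with 4.31 and 4.29 CPM in unmarked Thy1.1 cells, 5.72 and 4.19 CPM in marked Thy1.1 cells, 8.76 and 5.52 CPM in unmarked GFP cells and 6.28 and 8.56 CPM in marked GFP cells.

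All mice carried the genotype Foxp3DTR-GFP/Thy1.1, CD4CreER/wt and R26lsl-tdTomato/wt, so that 1 Foxp3 reporter allele gave GFP with the diphtheria toxin receptor and the other gave Thy1.1, both being marks of regulatory T (Treg) cells. Breeding and weaning took place on AVNM (as the labels write it) with a diet of defined amino acids, and tamoxifen then switched on tdTomato through a Cre under CD4 control, aimed at Foxp3-negative CD4 cells outside the thymus. Diphtheria toxin was given over the same period of about 3 weeks. Chow and a fecal microbiota of the SPF kind followed, and cells were double-sorted 12 days after colonization. Cells with tdTomato are called marked here, and cells without it unmarked. The 4 groups, unmarked Thy1.1, marked Thy1.1, unmarked GFP and marked GFP, had 2 libraries each, and all 4 shared the genotype, the toxin, the tamoxifen and the colonization. The toxin receptor, however, came with the GFP allele only. Between GFP and Thy1.1 cells the reporter and an action of the toxin on GFP cells therefore cannot be told apart, and the part of the toxin was not tested. The sources used here give neither the age nor the number of the mice, and do not say whether the 2 libraries of a group came from separate animals. What the p-values weigh is thus only how far the libraries of a group lie apart, and that distance can be technical. In the count table the Thy1.1 libraries are numbered 1 and 2 and the GFP libraries 3 and 4.

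The proteasome is the main protease of the cytosol and nucleus. Its core is a stack of rings, with alpha subunits that gate the channel and beta subunits that hold the active sites. A regulatory particle sits on the core, with a base of ATPases that unfold the substrate and a lid that takes off ubiquitin. Lymphocytes replace the 3 catalytic beta subunits in newly made cores by Psmb8, Psmb9 and Psmb10, which interferon raises further, and the peptides cut by such immunoproteasomes feed MHC class I. The RNA of the constitutive subunits is known to be set together by the transcription factor Nfe2l1, which binds antioxidant response elements with a small Maf partner.

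Stretches upstream of 4 start sites are shown for genes on which the results turn: the constitutive catalytic genes Psmb5 and Psmb6, the immunoproteasome gene Psmb10, and Psmd8, which had the largest difference of all 34 constitutive genes between marked GFP and marked Thy1.1 cells. They are RefSeq sequence (GRCm38.p6), 5′ to 3′ on the strand of the gene, cut back from 250 bases to the part free of annotated exons. They lie at chr14:54618023-54618245, minus strand for Psmb5, chr11:70525107-70525356, plus strand for Psmb6, chr8:105938445-105938642, minus strand for Psmb10 and chr7:29180702-29180923, minus strand for Psmd8. Capitals mark matches to the core of the antioxidant response element, TGACNNNGC, which Psmb5 and Psmb6 hold and the stretches of Psmb10 and Psmd8 do not.
Psmb5: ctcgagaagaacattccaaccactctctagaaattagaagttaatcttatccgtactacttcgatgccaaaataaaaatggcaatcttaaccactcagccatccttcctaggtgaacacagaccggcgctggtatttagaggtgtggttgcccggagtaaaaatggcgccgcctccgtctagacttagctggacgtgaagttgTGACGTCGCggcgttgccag
Psmb6: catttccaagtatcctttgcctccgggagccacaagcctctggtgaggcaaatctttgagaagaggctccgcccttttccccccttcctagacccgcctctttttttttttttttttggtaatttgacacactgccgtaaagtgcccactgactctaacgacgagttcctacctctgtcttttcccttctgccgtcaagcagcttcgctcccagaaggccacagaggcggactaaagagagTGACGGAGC
Psmb10: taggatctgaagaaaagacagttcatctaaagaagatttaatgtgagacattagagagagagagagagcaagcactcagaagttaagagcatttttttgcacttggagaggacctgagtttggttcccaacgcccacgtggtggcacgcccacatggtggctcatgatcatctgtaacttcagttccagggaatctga
Psmd8: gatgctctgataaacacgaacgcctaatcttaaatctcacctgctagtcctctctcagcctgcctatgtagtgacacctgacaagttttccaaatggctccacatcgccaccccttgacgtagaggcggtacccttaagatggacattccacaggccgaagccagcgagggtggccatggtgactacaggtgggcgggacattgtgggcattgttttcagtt
The element was searched on both strands of the 250 bases upstream of each RefSeq start site, in 34 windows of 32 of the 38 genes. It was in 5 of the 34 windows (14.7%), those of Psmb5, Psmb6, Psmc6, Psmd12 and Psmd9, and in 10.2% of all 32851 windows of that length. The interferon-stimulated response element was in 3 windows (8.82%, against 2.98% of all windows), those of Psmb3, Psmd4 and Psmd9. The gamma-activated site, spelled TTCNNNGAA, was in 1 (2.94%, against 7.02%), that of Psmb8. The CCAAT box was in 13 (38.2%, against 33.8%). Matches of different motifs may overlap. A match is a description of letters and not a site, and a window with no match says only that these letters are not in it.

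Libraries held 38085686 to 47908198 counts. Treg and T cell genes were high in all 8, with Foxp3 itself at 124 to 199 CPM and Cd4 at 298 to 498 CPM, while Cd8a lay at 0 to 7.18 CPM. Foxp3 was lower in marked GFP cells (124 and 138 CPM) than in marked Thy1.1 cells (190 and 191 CPM). Cd4 was higher, at 498 and 456 CPM against 350 and 327 CPM. Of the 6 T cell and Treg genes, 1 was called higher and 1 lower between these groups (edgeR). Summed CPM of 14 myeloid and dendritic cell genes was 124 in unmarked GFP library 3 and 28.9 in marked GFP library 3, against 3.56 to 6.37 in the other 6 libraries, with H2-Ab1, H2-Eb1 and Clec9a at 0 in all. Summed CPM of 4 erythroid genes was 46.7 in marked GFP library 3 and 1.71 to 5.25 elsewhere. Summed CPM of 6 B cell genes was 17.5 and 8.43 in marked GFP, 22.8 and 18.6 in unmarked GFP, 39.7 and 43.6 in marked Thy1.1 and 37.3 and 42.4 in unmarked Thy1.1 cells. That of 6 stromal and epithelial genes was 152 and 185 in marked GFP and 229 and 231 in marked Thy1.1 cells. In unmarked cells it was 269 to 312. Pecam1 made up most of this sum, at 96.5 and 152 CPM, 189 and 184 CPM and 244 to 300.5 CPM in that order. Epcam went the other way by mark, at 30.7 to 45.9 CPM in marked and 10.98 to 24.3 CPM in unmarked cells. Col1a1, Col1a2, Pdpn and Cdh5 each reached at most 7.7 CPM. Summed CPM of 6 CD8 and NK cell genes was 12.5 to 41.4 over all libraries. Of the other-cell lists, 1 of 3 tested erythroid genes was called higher and 1 of 4 tested CD8 and NK cell genes lower in marked GFP than in marked Thy1.1 cells (edgeR). Of 6 B cell, 2 plasma cell, 8 myeloid and dendritic and 6 stromal and epithelial genes tested, 0 were called, where 14.8% of all genes were. With lists this small, a lack of calls does not show equal levels. The part of these cells in the results was not tested. RNA came from bulk sorted cells, in which fewer expressing cells and less RNA per cell cannot be told apart.

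Constitutive proteasome genes were higher in marked GFP cells, and the immunoproteasome genes did not pass the test. Against marked Thy1.1 cells, 21 of the 34 constitutive genes were higher and 0 were lower at an adjusted p under 0.05 (edgeR's quasi-likelihood test, Benjamini-Hochberg adjusted over all 13989 genes tested), where 8.01% of all genes were called higher, 6.82% lower and 14.8% in either direction. The median difference of the 34 was 0.47 on the log2 scale, a 1.39-fold higher level, beside -0.01 over all genes tested. A positive value was found for 33 of the 34, and for 6922 of all 13989 genes. Both marked GFP libraries lay above both marked Thy1.1 libraries for 31 of the 34, that is for every constitutive subunit, the 3 chaperones being the exceptions, where 26% of all genes did so. They lay above all 6 other libraries for 27 of the 34, where 17.2% of all genes did so. The 7 that overlapped were the chaperones Psmd5, Psmd9 and Psmd10, the ATPase Psmc6 and the lid subunits Psmd12, Psmd13 and Psmd14. Of the 3 immunoproteasome genes 0 were called, and none had both marked GFP libraries above the marked Thy1.1 libraries.

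Summed over the 34 constitutive genes, RNA reached 6636 and 6092 CPM in marked GFP cells, against 5501 and 4841 CPM in unmarked GFP cells, 4744 and 4908 CPM in marked Thy1.1 cells and 4588 and 4416 CPM in unmarked Thy1.1 cells. The sum of the 3 immunoproteasome genes was 879.8 and 990.1 CPM, 867 and 887 CPM, 888 and 1026 CPM and 838 and 902 CPM in the same order. The first sum was highest in marked GFP cells with no overlap with any other group, while the highest single value of the second was in marked Thy1.1 library 2. Mean levels of 31 of the 34 constitutive genes were highest in marked GFP cells, and those of 30 were lowest in unmarked Thy1.1 cells. For 26 the mean of unmarked GFP cells lay between both Thy1.1 groups and marked GFP cells. The libraries of a group also differed: GFP library 3 exceeded library 4 for 31 of the 34 genes in unmarked cells and for 30 in marked cells. For these orders of means and libraries the share over all genes was not computed.

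**Figure D1:**
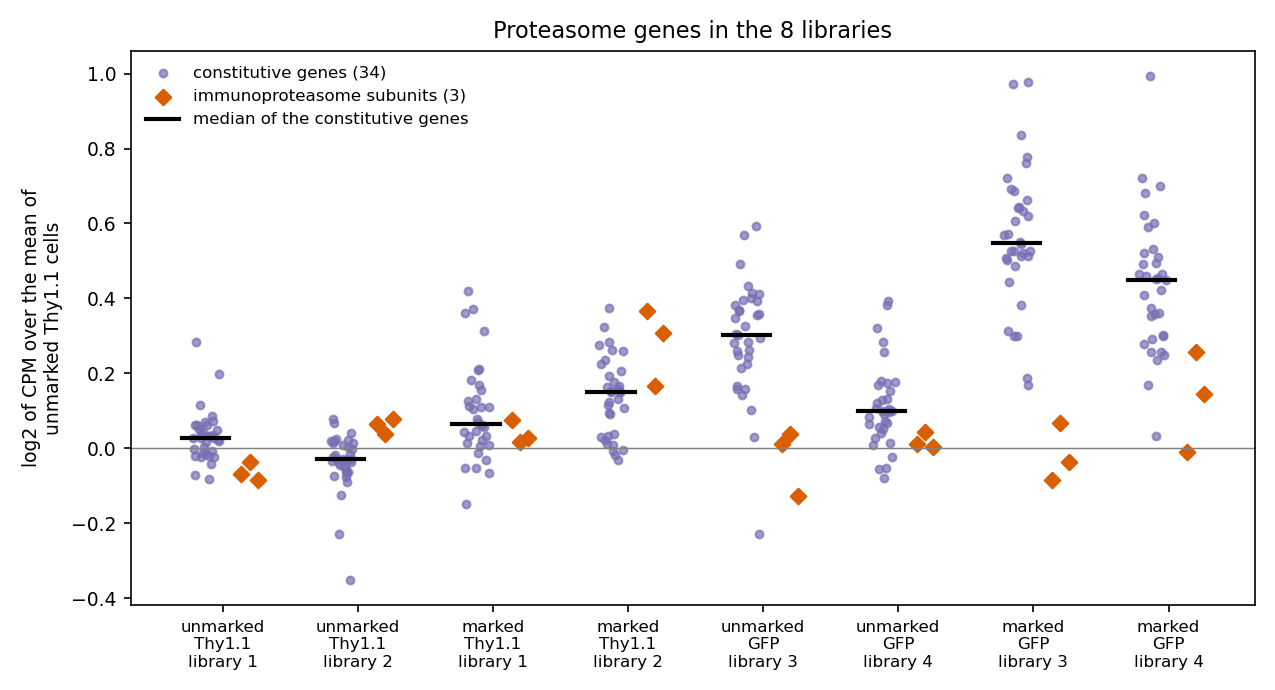
Level of each proteasome gene in each of the 8 libraries, as the log2 of its CPM over its mean CPM in unmarked Thy1.1 cells; circles are the 34 constitutive genes, black bars their median and diamonds the 3 immunoproteasome genes. The medians were 0.03 and -0.03 in unmarked Thy1.1 cells, 0.07 and 0.15 in marked Thy1.1 cells, 0.30 and 0.10 in unmarked GFP cells and 0.55 and 0.45 in marked GFP cells, and in marked GFP cells the diamonds lie below that median.

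The count of calls depended on single libraries. For the fits to fewer libraries the share of all genes called is not given here. A loss of calls particular to these genes thus cannot be told from a general one. Without marked Thy1.1 library 1 it was 0, without marked Thy1.1 library 2 it was 1 (Psmd8), without marked GFP library 3 it was 6 (Psma5, Psmb5, Psmb7, Psmc1, Psmc5 and Psmd8), and without unmarked Thy1.1 library 1 or 2 it was 9 or 10. A fit to these 2 groups alone called 12, and DESeq2 called 25, where it called 23.5% of all genes. In each fit that left out 1 library 31 to 33 of the 34 constitutive genes stayed positive, with medians from 0.36 (without marked GFP library 3) to 0.50 on the log2 scale. Without unmarked GFP library 3, the one with the most myeloid RNA, 22 were called.

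In the alpha ring, which gates the core, 6 of 7 genes were called higher in marked GFP than in marked Thy1.1 cells, with a median log2 difference of 0.51. Psma5 was at 89.5 and 90.9 CPM in marked GFP cells, 67.8 and 59.9 CPM in unmarked GFP cells, 56.7 and 57.2 CPM in marked Thy1.1 cells and 47.6 and 43.6 CPM in unmarked Thy1.1 cells. All 4 GFP libraries of this gene lay above all 4 Thy1.1 libraries. Its difference between the marked groups was 0.73 ± 0.12 (log2, SE), 1.65-fold (edgeR, adjusted p = 0.00821). Psma1 was at 279.6 and 269 CPM in marked GFP cells, with the other 6 libraries between 161 and 217 CPM, and differed by 0.67 ± 0.12 (edgeR, adjusted p = 0.0116). Psma3 was the alpha gene that was not called: marked GFP cells had 204 and 176 CPM and marked Thy1.1 cells 160.3 and 173 CPM, groups that lie next to each other without overlap, at 0.25 ± 0.11 (edgeR, adjusted p = 0.177). Without marked GFP library 3 the Psma3 difference was 0.09, and without marked Thy1.1 library 1 it was 0.14. Unmarked GFP cells had 169 and 148 CPM of Psma3 and unmarked Thy1.1 cells 145 and 139.9 CPM.

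In the constitutive beta ring, which carries the active sites, 6 of 7 genes were called higher, with a median log2 difference of 0.52. Psmb5 encodes the beta5 subunit with chymotrypsin-like activity, the site that the drug bortezomib blocks. Its level was 90.4 and 95.1 CPM in marked GFP cells, 77.9 and 77.3 CPM in unmarked GFP cells, 63.8 and 60.2 CPM in marked Thy1.1 cells and 60.9 and 57.8 CPM in unmarked Thy1.1 cells. The 4 GFP libraries stood above the 4 Thy1.1 libraries, and the marked groups differed by 0.64 ± 0.11 or 1.56-fold (edgeR, adjusted p = 0.00953). Psmb7, the beta2 subunit with trypsin-like activity, was at 112 and 110.1 CPM, 85.7 and 85.4 CPM, 74.7 and 72.1 CPM and 67.6 and 75.4 CPM in the same order of groups. It showed the same order, both GFP groups above both Thy1.1 groups, with a difference of 0.66 ± 0.11 between the marked groups (edgeR, adjusted p = 0.00892). Psmb6, the beta1 subunit with caspase-like activity, had 184 and 180.1 CPM in marked GFP cells and 152 and 145 CPM in marked Thy1.1 cells. Its unmarked groups had 171 and 136 CPM (GFP) and 135 and 126 CPM (Thy1.1), and its marked difference of 0.35 ± 0.12 was not called (edgeR, adjusted p = 0.0865). The other 4 beta genes, Psmb1, Psmb2, Psmb3 and Psmb4, rose by 0.44 to 0.53 on the log2 scale.

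In the base of the regulatory particle, 5 of 6 ATPase genes were called higher, with a median log2 difference of 0.55. Psmc5 had 224 and 200.5 CPM in marked GFP cells, 169 and 148 CPM in unmarked GFP cells, 134 and 138 CPM in marked Thy1.1 cells and 142 and 135 CPM in unmarked Thy1.1 cells, so the marked GFP libraries stood well apart from the other 6. The difference between the marked groups was 0.70 ± 0.10, 1.63-fold (edgeR, adjusted p = 0.00540). Psmc1 followed with 220.3 and 201 CPM in marked GFP cells against 129 to 160 CPM in the other 6 libraries, and 0.65 ± 0.10 between the marked groups (edgeR, adjusted p = 0.00673). Psmc6 differed from this pattern: its highest library was unmarked GFP library 3, and the marked and unmarked GFP groups overlapped, at 111 and 101 CPM in marked GFP, 116 and 102 CPM in unmarked GFP, 92.3 and 90.1 CPM in marked Thy1.1 and 104 and 77.1 CPM in unmarked Thy1.1 cells. Its marked difference was 0.28 ± 0.15 (edgeR, adjusted p = 0.258).

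Of the 3 base genes that are no ATPases, the scaffolds Psmd1 and Psmd2 rose and the ubiquitin receptor Psmd4 was not called. Psmd1 was at 208 and 203 CPM in marked GFP and 152 and 160.0 CPM in marked Thy1.1 cells (0.46 ± 0.10, edgeR, adjusted p = 0.0246), and its unmarked groups had 179 and 169 CPM (GFP) and 172 and 146 CPM (Thy1.1). Psmd2 was at 348 and 333 CPM in marked GFP and 285 and 274 CPM in marked Thy1.1 cells (0.35 ± 0.08, edgeR, adjusted p = 0.0250), with 313 and 316 CPM in unmarked GFP and 287 and 274 CPM in unmarked Thy1.1 cells. Psmd4 had a difference of the same size, 0.35 ± 0.10, that missed the threshold (edgeR, adjusted p = 0.0514). Its libraries were at 218 and 235 CPM in marked GFP, 181 and 191 CPM in marked Thy1.1, 189.9 and 189 CPM in unmarked GFP and 188 and 166 CPM in unmarked Thy1.1 cells.

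Of the 8 lid genes 2 were called higher, while all 8 had positive values, with a median log2 difference of 0.40. Psmd8, a lid subunit, had 279 and 231 CPM in marked GFP cells, 214 and 173 CPM in unmarked GFP cells, 141 and 152 CPM in marked Thy1.1 cells and 144 and 139.8 CPM in unmarked Thy1.1 cells. Each GFP library lay above each Thy1.1 library, and the marked difference of 0.86 ± 0.13 or 1.82-fold was the largest of the 34 constitutive genes (edgeR, adjusted p = 0.00609). Psmd7, which pairs with the deubiquitinase subunit, was at 157 and 147 CPM in marked GFP, 113 and 117 CPM in marked Thy1.1, 138 and 115 CPM in unmarked GFP and 107 and 113 CPM in unmarked Thy1.1 cells, a marked difference of 0.46 ± 0.11 (edgeR, adjusted p = 0.0324). The deubiquitinase itself, Psmd14, had a difference of 0.48 ± 0.15 that was not called (edgeR, adjusted p = 0.0757). Psmd12 had the largest p of the lid: 143 and 156 CPM in marked GFP cells overlapped the 129.7 and 159 CPM of unmarked GFP cells, with 134 and 130.4 CPM in marked and 125 and 129 CPM in unmarked Thy1.1 cells (0.24 ± 0.13, edgeR, adjusted p = 0.261).

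None of the 3 base chaperones, which help the ATPase ring form and leave the finished particle, was called. Psmd10 had 55.9 and 42.2 CPM in marked GFP, 45.7 and 42.9 CPM in marked Thy1.1, 45.6 and 37.96 CPM in unmarked GFP and 36.8 and 33.7 CPM in unmarked Thy1.1 cells (0.21 ± 0.18, edgeR, adjusted p = 0.498). Psmd9 had 42.9 and 35.1 CPM, 39.8 and 38.6 CPM, 41.9 and 30.1 CPM and 36.2 and 23.3 CPM in that order (0.05 ± 0.25, edgeR, adjusted p = 0.918). Psmd5 was the constitutive gene with a negative difference, -0.14 ± 0.15 (edgeR, adjusted p = 0.591): 119.9 and 108 CPM in marked GFP lay below 135 and 126 CPM in marked Thy1.1 cells, and unmarked cells had 89.8 and 115 CPM (GFP) and 111 and 99.8 CPM (Thy1.1). Without marked GFP library 3 the differences of Psmd10, Psmd9 and Psmd5 were -0.06, -0.15 and -0.26, and that of the ATPase Psmc6 was 0.17. Psmc3ip, no proteasome gene, differed by 0.64 ± 0.41 (edgeR, adjusted p = 0.348). By part of the complex, 12 of 14 core genes and 9 of 17 genes of the regulatory particle were called higher, where 8.01% of all genes were. All 14 and all 17 had positive values, with median log2 differences of 0.52 and 0.46. At an unadjusted p under 0.05 (edgeR) there were 13 and 15, where 29.9% of all genes were.

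**Figure D2:**
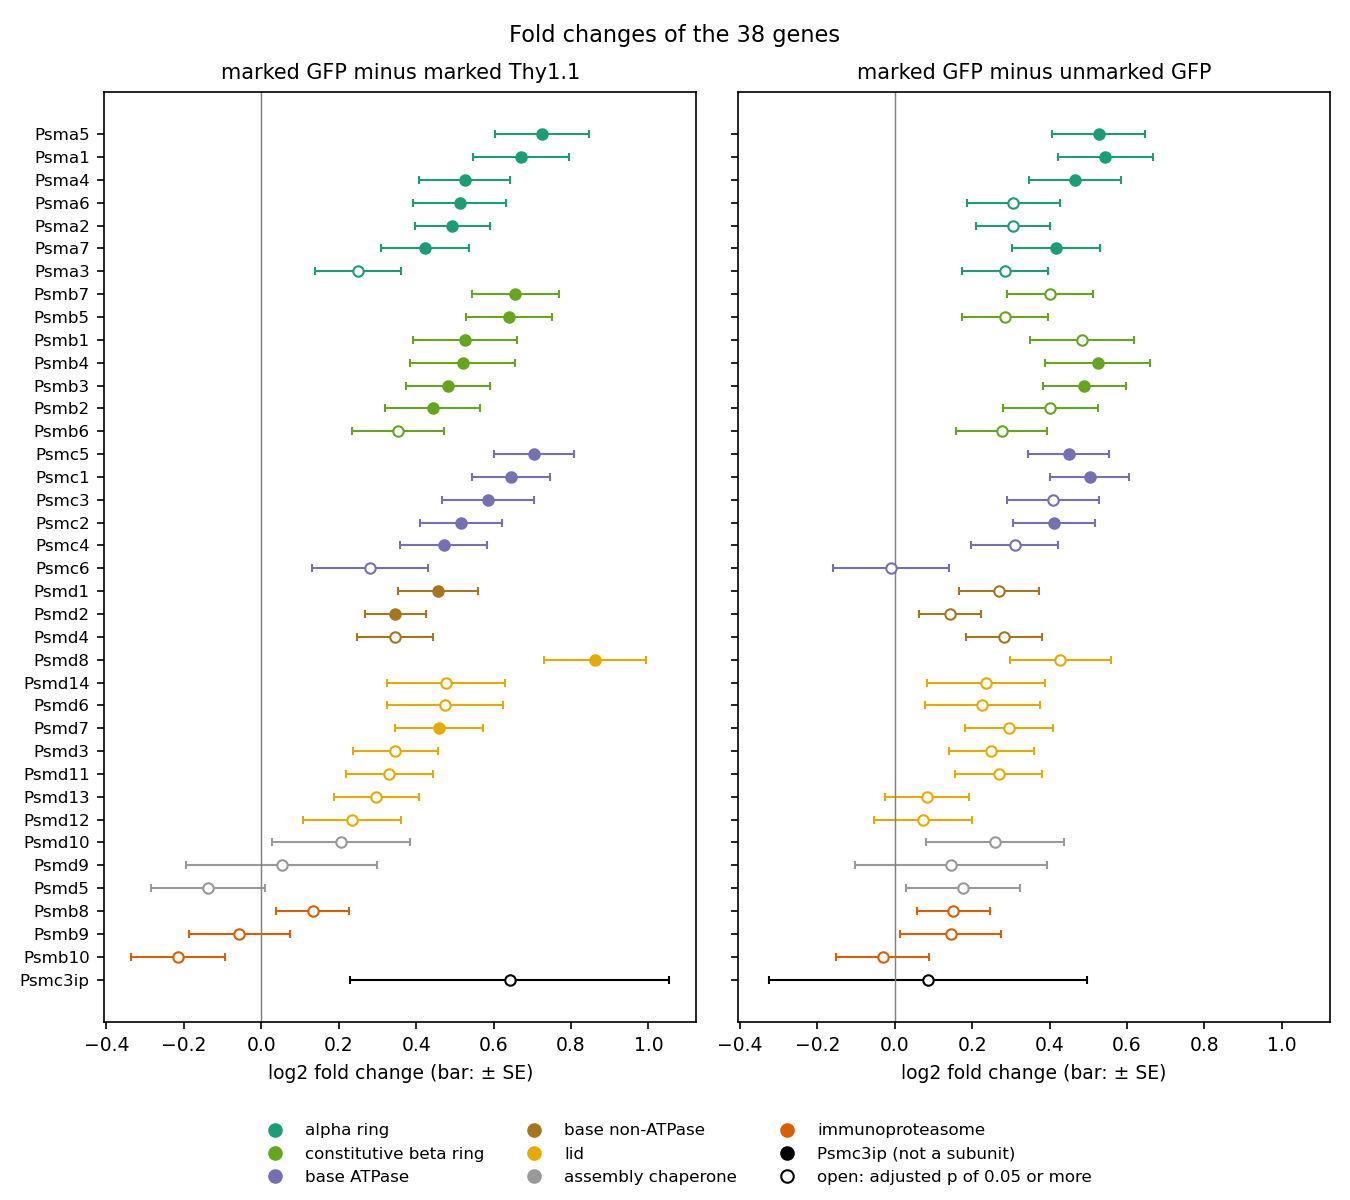
Log2 fold change with its SE (horizontal axis) for each of the 38 genes, coloured by role and filled where the edgeR adjusted p was under 0.05; left, marked GFP minus marked Thy1.1 cells, right, marked GFP minus unmarked GFP cells. On the left 21 constitutive genes are filled and the 3 immunoproteasome genes lie from -0.21 to 0.13; on the right 9 are filled.

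For the 3 immunoproteasome genes no comparison gave a call. Psmb8, the inducible counterpart of Psmb5, was at 530.3 and 605 CPM in marked GFP cells, 520.3 and 522 CPM in unmarked GFP cells, 512 and 568 CPM in marked Thy1.1 cells and 493 and 519.5 CPM in unmarked Thy1.1 cells. The marked groups overlapped and differed by 0.13 ± 0.09 (edgeR, adjusted p = 0.396). Psmb9, the counterpart of Psmb6, was at 208 and 236 CPM, 195 and 213 CPM, 217 and 264 CPM and 201 and 225 CPM in the same order, with marked groups that again overlapped, at -0.06 ± 0.13 (edgeR, adjusted p = 0.823). Psmb10, the counterpart of Psmb7, was at 142 and 149 CPM, 151.2 and 151.5 CPM, 158 and 194 CPM and 143 and 157 CPM. Both marked GFP libraries of Psmb10 lay below both marked Thy1.1 libraries, as they did for 33.1% of all genes, and the difference of -0.21 ± 0.12 was not called (edgeR, adjusted p = 0.283). In the 4 comparisons of groups and the interaction 0 of the 3 had an unadjusted p under 0.05, and in the fits and alternatives run here, DESeq2 among them, 0 of the 3 were called. A p that misses the threshold does not show equal levels.

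Within a library, the ratio of an immunoproteasome gene to the gene whose product it replaces needs no scaling between libraries. Psmb8 over Psmb5 counts was 5.87 and 6.37 in marked GFP cells and 6.68 and 6.74 in unmarked GFP cells, against 8.02 and 9.43 in marked Thy1.1 cells and 8.10 and 8.99 in unmarked Thy1.1 cells. All 4 GFP libraries were below all 4 Thy1.1 libraries. Psmb10 over Psmb7 was 1.27 and 1.35 in marked GFP, 1.76 and 1.77 in unmarked GFP, 2.12 and 2.69 in marked Thy1.1 and 2.12 and 2.08 in unmarked Thy1.1 cells, in which again each GFP library lay below each Thy1.1 library and the marked GFP libraries lowest. Psmb9 over Psmb6 was 1.13 and 1.31 in marked GFP, 1.14 and 1.57 in unmarked GFP, 1.43 and 1.82 in marked Thy1.1 and 1.48 and 1.78 in unmarked Thy1.1 cells, where the unmarked groups overlapped. Between marked GFP and marked Thy1.1 cells the log2 ratios differed by -0.51, -0.87 and -0.41 for Psmb8 to Psmb5, Psmb10 to Psmb7 and Psmb9 to Psmb6. Leaving out 1 of the 4 libraries kept each difference negative, from -0.63 to -0.39, from -1.04 to -0.69 and from -0.58 to -0.24. These ratios are descriptions with no test.

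**Figure D3:**
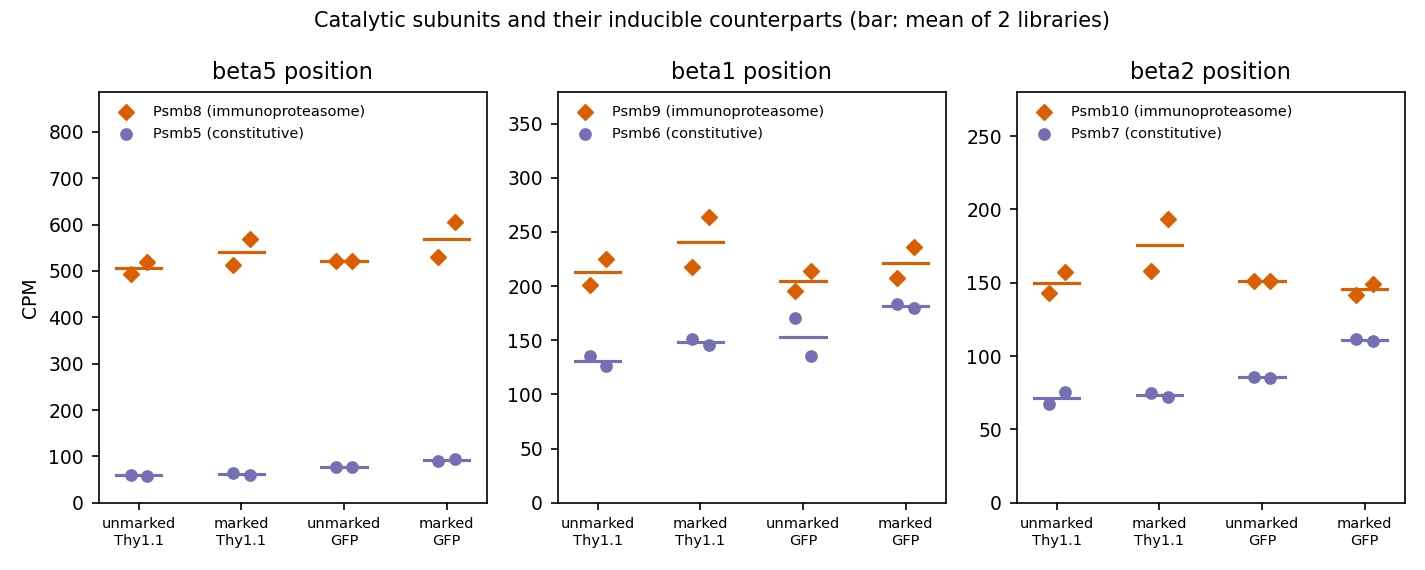
CPM of the 3 immunoproteasome genes (diamonds) and of the constitutive genes whose products they replace (circles) in both libraries of each group, with the mean as a bar; each panel is 1 active site. Psmb5, Psmb6 and Psmb7 are highest in marked GFP cells, while Psmb8 and Psmb9 overlap between the marked groups and Psmb10 has its lowest mean there.

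Levels of different catalytic genes were compared per kilobase of the principal transcript. The median over the 8 libraries was 320.0 CPM per kb for Psmb8 and 78.5 for Psmb5. It was 159 for Psmb9 and 186 for Psmb6, and 115 for Psmb10 and 69.3 for Psmb7. On this per-length scale the lowest library of Psmb8 (303) exceeded the highest of Psmb5 (106), and that of Psmb10 (108) the highest of Psmb7 (96.3), while the ranges of Psmb9 and Psmb6 overlapped. Part of the Psmb9 gene (chr17:34181987-34187764, minus strand, ENSMUSG00000096727.3 in GENCODE M21, GRCm38) overlaps Tap1 on the other strand, Psmb8 (chr17:34197721-34201454, plus strand, ENSMUSG00000024338.15) overlaps Gm20496, Psmb5 (chr14:54614119-54618022, minus strand, ENSMUSG00000022193.7) overlaps Mir686 and Psmb7 (chr2:38588036-38644087, minus strand, ENSMUSG00000026750.6) overlaps Nek6. GENCODE also names 1, 2 and 1 pseudogenes of Psmb5, Psmb6 and Psmb7. The library kit does not mark strand, so the counts of these genes may include reads of their neighbours or copies.

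In unmarked cells, GFP against Thy1.1, 0 of the 38 genes were called (edgeR), where 0.164% of all genes were (0.0643% higher and 0.1% lower). At an unadjusted p under 0.05 there were 4 of the 38 (10.5%, against 11.9% of all genes), and DESeq2 called 2, Psma5 and Psmd8, where it called 4.32% of all genes. Over all 13989 genes tested the median was 0.0004 on the log2 scale, with 7006 positive. The median of the 34 constitutive genes was 0.21, and 33 were positive. Both unmarked GFP libraries lay above both unmarked Thy1.1 libraries for 25 of them, where 21.3% of all genes did so. Psma5 had 0.48 ± 0.12 (edgeR, adjusted p = 0.178), Psmd8 0.44 ± 0.13 (edgeR, adjusted p = 0.237) and Psmb5 0.39 ± 0.11 (edgeR, adjusted p = 0.225). Without unmarked GFP library 3 the median fell to 0.11 with 30 positive, and without library 4 it was 0.29.

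Whether the reporter difference is larger in marked than in unmarked cells was tested as an interaction. Of the 38 genes 0 were called (edgeR), where 0.443% of all genes were (0.0929% with a higher and 0.35% with a lower value), with 7 of the 38 (18.4%, against 12.8% of all genes) at an unadjusted p under 0.05 and 0 by DESeq2 (4.06% of all genes). Over all 13989 genes tested the median was 0.03 with 7315 positive, and that of the constitutive genes was 0.25 with 31 positive. Without 1 library it ranged from 0.14 (without unmarked GFP library 4) to 0.36 (without unmarked GFP library 3), with 25 to 32 positive, and it was 0.17 without marked GFP library 3. The largest value was that of Psmc5, 0.52 ± 0.15 (edgeR, adjusted p = 0.215). No single gene was thus shown to differ in size between the comparisons.

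Within GFP cells, 9 constitutive genes were higher in marked than in unmarked cells and 0 were lower (edgeR), where 6.24% of all genes were called higher, 6.4% lower and 12.6% in either direction. DESeq2 called 15, where it called 21.7% of all genes. The 9 called by edgeR were the alpha genes Psma1, Psma4, Psma5 and Psma7, the beta genes Psmb3 and Psmb4, and the ATPases Psmc1, Psmc2 and Psmc5. Psma1 had the largest difference, 0.54 ± 0.12 (edgeR, adjusted p = 0.0287), and Psma7 was the closest to the threshold, 0.42 ± 0.11 (edgeR, adjusted p = 0.04997). Over all 13989 genes tested the median was 0.03, with 7298 positive, and that of the 34 was 0.30, with 33 positive. For the changed fits that follow, the share of all genes called is not given here. All 9 calls were lost without any 1 of the 4 Thy1.1 libraries, without unmarked GFP library 4, without marked GFP library 3, or in a fit to the GFP libraries alone, and 5 were called under scaling by library totals. In the fits without 1 library that lost all 9 calls, 31 to 33 constitutive genes were positive. Without unmarked GFP library 3 there were 11 calls and the median was 0.41, and without marked GFP library 3 it was 0.23.

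Within Thy1.1 cells, marked against unmarked, 0 of the 38 genes were called by edgeR, which called 0% of all genes, or by DESeq2, which called 1.08%. At an unadjusted p under 0.05 there was 1 of the 38 (2.63%, against 7.6% of all genes), Psma5 at 0.28 ± 0.12. Over all 13989 genes tested the median was 0.01 with 7144 positive. The constitutive median was 0.05 with 30 positive, and 0.04 to 0.13 with 25 to 30 positive when 1 library was left out. It was highest without marked Thy1.1 library 1, 0.09 without either unmarked Thy1.1 library and 0.09 under library totals. Over the 4 populations at once, 16 genes differed (edgeR test of any difference), all constitutive, where 16.1% of all genes did, and DESeq2 called 29, where it called 29.8% of all genes. The edgeR share of these genes, 16 of 38, fell to 3 to 5 without any 1 of the Thy1.1 libraries, to 3 without marked GFP library 3 and to 10 without marked GFP library 4. For the fits without 1 library the share of all genes called is not given here. The comparisons share libraries, so their counts are not independent of each other.

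Genes that work with the proteasome were read from lists by role. Apart from cell cycle genes, 14 of them were called between marked GFP and marked Thy1.1 cells (edgeR). They came from lists of 5, 6, 8, 12, 9, 6, 11 and 18 tested genes. Of all genes tested 14.8% were called in this comparison, so the list counts below are descriptions to be read beside that share. Of these 14, 5 were still called without marked GFP library 3 (Mafg, Pomp, Psme2, Uba1 and Vcp), 2 without marked Thy1.1 library 1 (Mafg and Uba1), 1 without marked Thy1.1 library 2 (Psme2), 9 without either unmarked Thy1.1 library, 10 without marked GFP library 4, 12 without unmarked GFP library 4 and 14 without unmarked GFP library 3. Without marked GFP library 3 the log2 differences were 0.67 for Pomp, 0.50 for Psme2, 1.29 for Mafg, 0.76 for Uba1, 0.44 for Vcp and -0.97 for Nlrc5. The values below come from all 8 libraries. Of 5 chaperones of core assembly, Pomp was higher in marked GFP than in marked Thy1.1 cells and Psmg1, Psmg2, Psmg3 and Psmg4 were not called (list median 0.14). Pomp, the maturation factor that escorts beta subunits into the core and is consumed with the first complete particle, was at 238 and 202 CPM in marked GFP, 155 and 116 CPM in unmarked GFP, 129 and 127 CPM in marked Thy1.1 and 119.9 and 109 CPM in unmarked Thy1.1 cells. Both marked GFP libraries stood above the other 6, at 0.84 ± 0.15 or 1.79-fold (edgeR, adjusted p = 0.00948). Of 6 activators and inhibitors of the core, 2 rose, with a list median of -0.01. Psme1 and Psme2 encode the alpha and beta subunits of the interferon-inducible PA28 cap and parted here. Psme2 was at 295 and 298 CPM in marked GFP and 197 and 228 CPM in marked Thy1.1 cells (0.54 ± 0.10, edgeR, adjusted p = 0.0117), with 224 and 204 CPM in unmarked GFP and 182 and 188 CPM in unmarked Thy1.1 cells. Psme1 was at 352 and 344 CPM, 335 and 389.8 CPM, 329 and 325 CPM and 321 and 333 CPM in that order (0.00 ± 0.09, edgeR, adjusted p = 0.998), with marked groups that overlapped. Psme3, the nuclear PA28 gamma, rose by 0.36 ± 0.09 (edgeR, adjusted p = 0.0378).

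Of 8 further subunits and partners of the particle, the lid subunit Sem1 (listed under its older symbol, Shfm1) rose by 0.56 ± 0.12 (edgeR, adjusted p = 0.0193), and the ubiquitin ligase Ube3a fell by 0.52 on the log2 scale (SE 0.11, edgeR, adjusted p = 0.0164), with a list median of 0.09. Of 12 shuttle factors and parts of the Vcp segregase, 3 rose: Zfand5, an activator of the particle, by 0.78 ± 0.15 (edgeR, adjusted p = 0.0144), Vcp itself by 0.43 ± 0.09 (edgeR, adjusted p = 0.0154) and the ubiquitin shuttle Rad23b by 0.47 ± 0.11 (edgeR, adjusted p = 0.0301). The list median was 0.13. Of 6 ubiquitin and E1 genes, Uba1, the main enzyme that activates ubiquitin, rose from 400.3 and 359 CPM in marked Thy1.1 to 549 and 636 CPM in marked GFP cells (0.70 ± 0.10, edgeR, adjusted p = 0.00509), while the unmarked groups had 498 and 528 CPM (GFP) and 484 and 467 CPM (Thy1.1). For this gene marked Thy1.1 cells were the lowest group. The list median was 0.20.

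Of 9 genes that regulate proteasome genes, 1 was called. Nfe2l1 RNA was at 60.7 and 87.8 CPM in marked GFP, 88.3 and 64.8 CPM in marked Thy1.1, 91.0 and 95.5 CPM in unmarked GFP and 99.6 and 93.3 CPM in unmarked Thy1.1 cells, with overlapping marked groups (0.02 ± 0.21, edgeR, adjusted p = 0.975). Its protein is known to be set largely by cleavage and turnover, which RNA does not show. Mafg, a small Maf partner of this family, was at 69.9 and 77.6 CPM, 38.9 and 24.9 CPM, 38.9 and 33.4 CPM and 19.7 and 22.9 CPM in that order. The marked GFP libraries lay above all others, by 1.27 ± 0.23 or 2.41-fold over marked Thy1.1 cells (edgeR, adjusted p = 0.0109). The list median was -0.02.

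**Figure D4:**
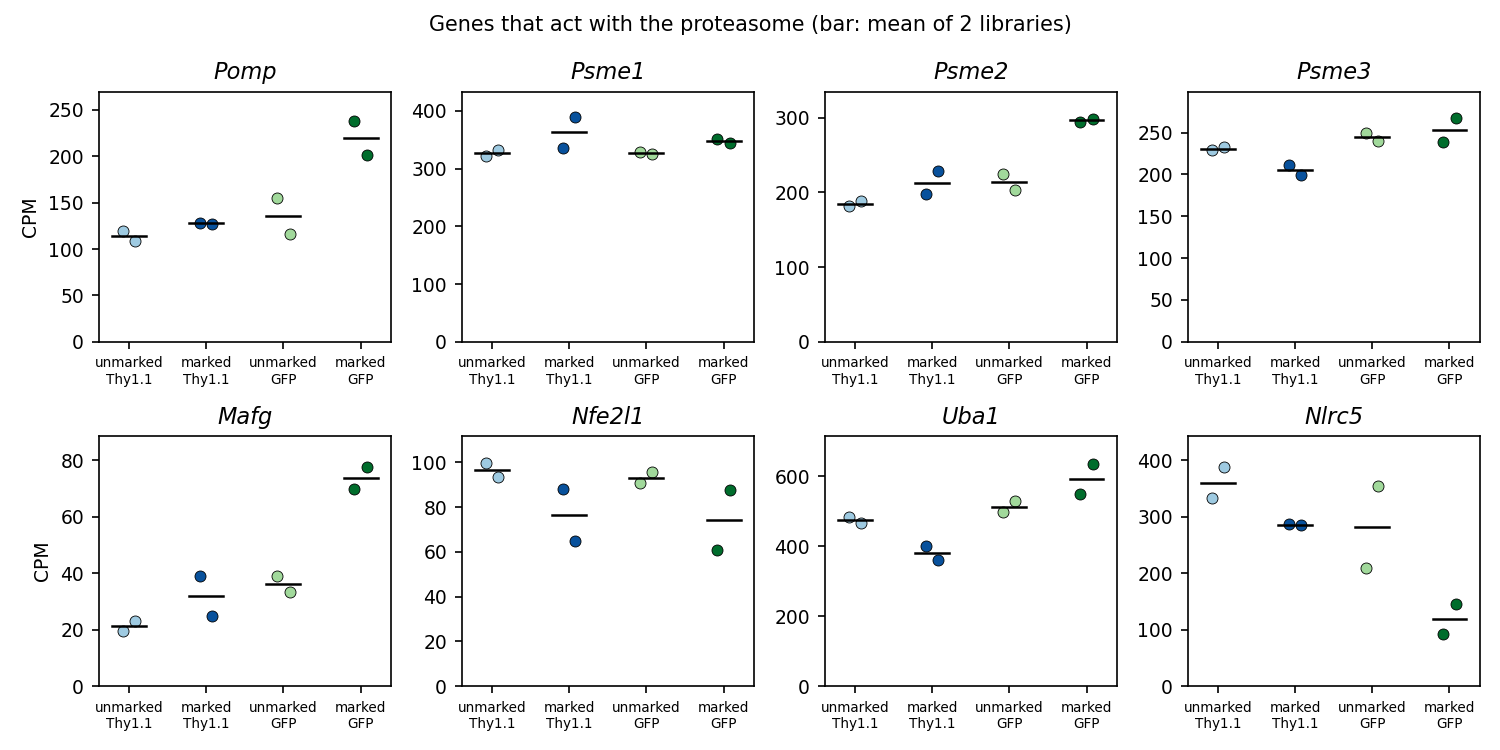
CPM of 8 genes that act with the proteasome in both libraries of each group, with the mean as a bar and every axis starting at 0. Pomp, Psme2 and Mafg are highest and Nlrc5 is lowest in marked GFP cells, while Psme1 and Nfe2l1 overlap between the marked groups.

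Of 11 tested genes of MHC class I antigen processing, the step that immunoproteasome products feed, 1 rose and 2 fell in marked GFP against marked Thy1.1 cells, with a list median of -0.03. Nlrc5, the transactivator of MHC class I genes that also acts on Psmb9, was at 92.6 and 145 CPM in marked GFP, 209.9 and 355 CPM in unmarked GFP, 287 and 285 CPM in marked Thy1.1 and 333 and 388 CPM in unmarked Thy1.1 cells. Both marked GFP libraries were below the other 6, at -1.21 ± 0.28 against marked Thy1.1 cells (edgeR, adjusted p = 0.0255). H2-K1, a class I heavy chain with near-identical relatives that make its count uncertain, differed by -0.49 ± 0.13 (edgeR, adjusted p = 0.0363), and the chaperone Calr by 0.38 ± 0.10 (edgeR, adjusted p = 0.0401), or 0.25 without marked Thy1.1 library 2. Tap1, the peptide transporter subunit whose gene overlaps Psmb9, was at 373 and 493 CPM in marked GFP and 384 and 474 CPM in marked Thy1.1 cells (0.07 ± 0.19, edgeR, adjusted p = 0.835), with 363 and 467 CPM in unmarked GFP and 439.9 and 516 CPM in unmarked Thy1.1 cells. Library 2 or 4 of each population had more Tap1 RNA than library 1 or 3.

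The same order of libraries held for the immunoproteasome. Libraries 2 and 4 exceeded libraries 1 and 3 in all 4 populations for each of Psmb8, Psmb9 and Psmb10, for 0 of the 34 constitutive genes and for 6.96% of all genes tested. Of 20 interferon-response genes 17 shared that order, and their summed CPM was 2273 and 4057 in unmarked Thy1.1, 2246 and 4045 in marked Thy1.1, 1871 and 3928 in unmarked GFP and 1718 and 3579 in marked GFP cells. Of the 18 tested, 0 were higher and 1, Irf1, was lower in marked GFP than in marked Thy1.1 cells (-0.32 ± 0.08, edgeR, adjusted p = 0.0301; list median -0.11). The sources used here do not say what the library numbers stand for. The part of this difference between libraries in the immunoproteasome values was not tested.

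**Figure D5:**
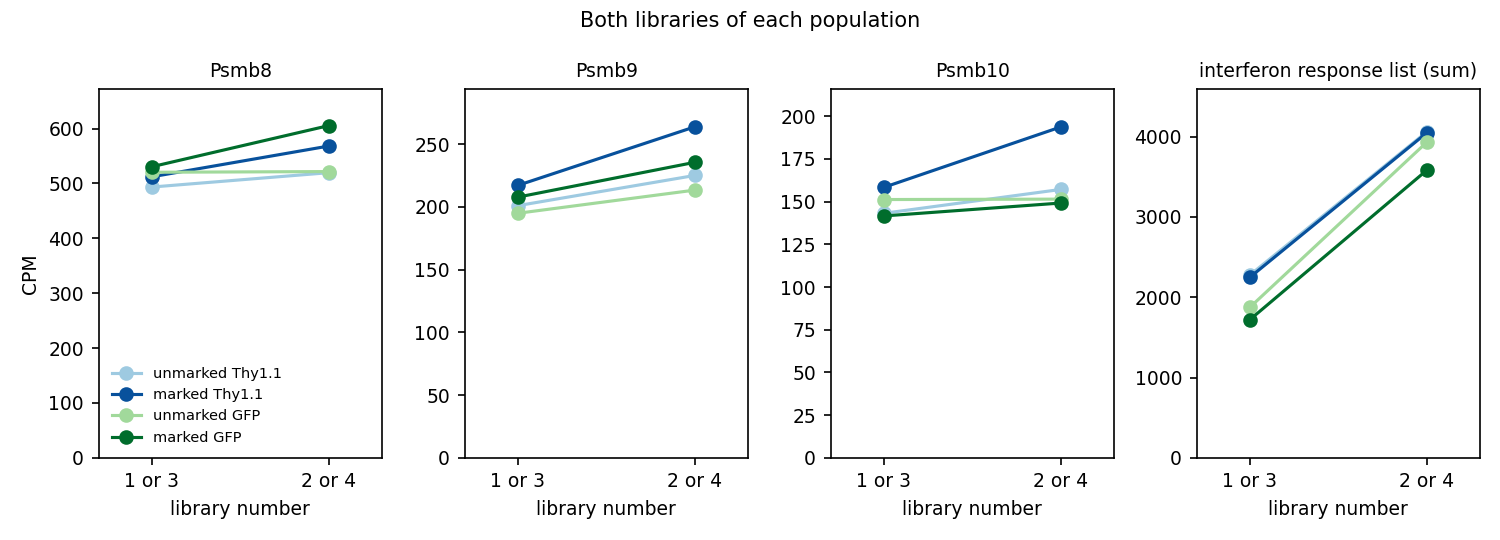
CPM of Psmb8, Psmb9 and Psmb10 and summed CPM of 20 interferon-response genes in the libraries numbered 1 or 3 (left of each panel) and 2 or 4 (right), with 1 line per group. Every line goes up, steeply for the interferon list and by a small amount for Psmb8 and Psmb10 in unmarked GFP cells.

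Of 21 cell cycle genes, 20 were higher in marked GFP than in marked Thy1.1 cells (edgeR), where 8.01% of all genes were called higher. The list median was 1.99 on the log2 scale. In marked against unmarked GFP cells 13 of 21 were higher, where 6.24% of all genes were called higher. Constitutive proteasome genes were called higher in both of these comparisons too. For the cell cycle counts without 1 library that follow, the share of all genes called is not given here. In the first comparison 19 were called without marked GFP library 3 and 14 without either marked Thy1.1 library. In the second, 4 were called without marked GFP library 3, 2 without unmarked GFP library 4, and 8 or 9 without 1 of the Thy1.1 libraries. Their summed CPM was 2784 and 2416 in marked GFP, 1651 and 1291 in unmarked GFP, 936 and 872 in marked Thy1.1 and 983 and 946 in unmarked Thy1.1 cells. In both GFP groups library 3 was the higher one, as for most constitutive proteasome genes. Between marked and unmarked Thy1.1 cells the median was -0.18 for cell cycle and 0.05 for constitutive proteasome genes, beside 0.01 over all genes tested. Whether the 2 sets differ there was not tested. Between unmarked GFP and unmarked Thy1.1 cells the medians were 0.97 and 0.21. In these other comparisons 0 cell cycle genes were called (edgeR), where 0% and 0.164% of all genes were. The part of cycling cells in the proteasome values was not tested.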

How the data were processed

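PolyA RNA was amplified with a SMART-Seq v4 kit (12 cycles), made into libraries with 8 PCR cycles and read as paired 50-nt ends, per the labels' protocols. One deposited table holds unnormalized read counts for each gene and library (whole numbers, judged from its values). DESeq is named in the submitters' processing notes, while the aligner, counting tool, gene models and build were not given in the sources used here. Of 24116 rows, 8 had no gene name (0.0215% to 0.0264% of counts) and were left out. The GFP columns carry numbers 3 and 4 where the sample titles have 1 and 2, so they were matched to their group only.

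Counts were tested with edgeR 4.0.16 in R 4.3.3: genes were filtered at a minimum count of 10 (13989 tested, all 38 among them), libraries scaled by TMM (0.978 to 1.02), and 1 robust quasi-likelihood model with a mean per group fitted to all 8 libraries (4 residual degrees of freedom, common biological coefficient of variation 0.399). Benjamini-Hochberg adjustment ran over all genes, with a threshold of 0.05. Standard errors were derived from the F statistic. Alternatives were DESeq2 1.42.0, other scalings and filters, fits to 2 groups, a replicate block, and leaving out each library. The script was tested on simulated data. With 2 libraries a group, each call leans on the spread shared over all genes and groups. Limits from a count of 0 (3 counts) cover counting error only.

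Exons, lengths and overlaps came from GENCODE M21 (GRCm38) and sequences from RefSeq (GRCm38.p6). The table has no coordinates. Paaf1 of the assembly list and Trac, Hba-a1 and Hbb-bt of the marker lists were not analysed here. The 38 genes and all lists were chosen with earlier results of these data known. Named genes were the 6 catalytic genes; per other class the 2 with the smallest and the 1 with the largest p in marked GFP against marked Thy1.1 cells; up to 4 genes with the smallest p per list; and Psme1, Psme2, Nfe2l1, Tap1, Nlrc5 and Pomp. Psmd14, and genes named only in lists of called or overlapping genes, were chosen after their values were seen. So was leaving out libraries for the pathway and cell cycle lists.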

Additional observations from a re-analysis of the deposited data

How the results depend on the processing

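For marked GFP against marked Thy1.1 cells, the 21 proteasome genes called became 12 in a fit to these groups alone, 14 under library totals and 25 with DESeq2, and 0 to 22 when 1 library was left out. For marked against unmarked GFP cells, the 9 calls became 5 under library totals, 5 with no filter on low counts, 15 with DESeq2, 0 in a fit to the GFP libraries alone, and 0 to 11 when 1 library was left out. For unmarked GFP against unmarked Thy1.1 cells DESeq2 called 2 where edgeR called 0, and for any difference among the groups DESeq2 called 29 where edgeR called 16 (3 to 19 without 1 library). Leaving out a library also leaves fewer residual degrees of freedom, and an arm with 1 library is then assumed to vary like the others. The share of all genes called in those fits is not given here. Among the 22 genes, a value changed sign only where it was called neither before nor after: in marked cells these were Psmb9 (-0.06, and 0.04 without marked Thy1.1 library 2), Psmd10 (0.21, and -0.06 without marked GFP library 3) and Psmd9 (0.05, and -0.15 to -0.01 in 3 alternatives). The replicate block joined library 1 with 3 and 2 with 4, a pairing assumed from the order of the numbers, and called 21, 0, 9, 0, 0 and 16 in the 6 tests, the same counts as without it, with 20 of the 21 and 8 of the 9 genes shared. The labels do not state such a pairing. The differences between the libraries of a group correlated between groups at 0.0325 to 0.0560 over genes, positive for all 6 pairs of groups, a hint from the data only. For the log2 exchange ratios the ranges without 1 library were -0.63 to -0.39, -0.58 to -0.24 and -1.04 to -0.69. Of the 22 proteasome genes described singly, only those called with all 8 libraries had a call to lose. In marked GFP against marked Thy1.1 cells each of these lost it in at least 1 of the fits without 1 library. Psmb6, not called with all 8, gained a call in another such fit.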
